A study of Mus musculus with 10 samples.

Results

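Bitter taste receptor genes were read in cultured mouse cortical neurons as the 35 genes whose symbol is Tas2r followed by a number, out of 22180 genes with a symbol of their own on the array. The symbol chose them; the family itself was selected on measured values, since the rise of Tas2r108 in both genotypes was known from these arrays, so what is said of Tas2r108 under arsenite describes that choice. Each of the 35 had a single probe set, so the choice of the brightest probe set per gene decided nothing among them, and 0 probe sets with several symbols named a Tas2r gene. RNA from 10 samples was hybridized to Affymetrix arrays that carry probes along the length of each transcript, and the deposited values are log2 signals normalized by robust multiarray average (RMA). The neurons came from mouse embryos at embryonic day 14.5 to 15.5 and were kept for 7 days in vitro before a 12 hour exposure. The groups were wildtype neurons with vehicle (2 arrays), wildtype neurons with 5 µM sodium arsenite (4 arrays), ATF4-deficient neurons with vehicle (2 arrays) and ATF4-deficient neurons with 5 µM sodium arsenite (2 arrays). Arsenite is a thiol-reactive arsenic compound that causes oxidative stress, and ATF4 is the transcription factor that carries out much of the integrated stress response. Which part of Atf4 was removed is not in the labels, nor whether the deficiency was confined to some cells or embryos were pooled.

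Bitter taste receptors (TAS2Rs) are G protein-coupled receptors with short or absent introns in their coding regions. On the tongue they sit in type II taste cells, where an agonist releases the G protein gustducin, whose βγ subunits activate phospholipase C β2; calcium released through the type 3 inositol trisphosphate receptor then opens the cation channel TRPM5 and ATP leaves through a CALHM channel. The same receptors have been described outside the tongue, for instance in airway cells and in brain. Each receptor answers to its own set of bitter compounds, and Tas2r108, for example, is a receptor for denatonium.

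Of the 35 receptor genes, Tas2r108 and Tas2r137 rose with arsenite in each genotype, and the other 33 passed the test in no comparison. These 2 genes are next to each other on chromosome 6 in the RefSeq gene table for GRCm38.p6, on the same strand, with 2354 bases between their starts. The sequences that begin them are shown because they are the pair that moved; Tas2r138, the third receptor gene of that neighbourhood and the mouse counterpart of the human receptor for phenylthiocarbamide, is shown beside them as one that did not pass. Each run holds 250 bases before the annotated start in lower case and the first 50 bases of the gene, which begin with the start codon ATG, in capitals, from RefSeq (GRCm38.p6), 5′ to 3′ on the gene's own strand.
Tas2r137, chr6:40490988-40491287, plus strand: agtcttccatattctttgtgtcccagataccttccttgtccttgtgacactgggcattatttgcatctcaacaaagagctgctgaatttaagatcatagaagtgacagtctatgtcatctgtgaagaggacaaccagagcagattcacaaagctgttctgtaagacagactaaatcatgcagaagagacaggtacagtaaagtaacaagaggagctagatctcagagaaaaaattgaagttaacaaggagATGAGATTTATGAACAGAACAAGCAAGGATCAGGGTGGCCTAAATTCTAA
Tas2r108, chr6:40493342-40493641, plus strand: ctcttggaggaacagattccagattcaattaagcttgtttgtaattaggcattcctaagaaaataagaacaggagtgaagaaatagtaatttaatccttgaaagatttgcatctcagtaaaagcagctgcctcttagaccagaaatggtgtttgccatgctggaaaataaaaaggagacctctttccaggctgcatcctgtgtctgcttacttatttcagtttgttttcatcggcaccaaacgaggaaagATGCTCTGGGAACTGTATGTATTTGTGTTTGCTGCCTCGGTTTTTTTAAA
Tas2r138, chr6:40613261-40613560, minus strand: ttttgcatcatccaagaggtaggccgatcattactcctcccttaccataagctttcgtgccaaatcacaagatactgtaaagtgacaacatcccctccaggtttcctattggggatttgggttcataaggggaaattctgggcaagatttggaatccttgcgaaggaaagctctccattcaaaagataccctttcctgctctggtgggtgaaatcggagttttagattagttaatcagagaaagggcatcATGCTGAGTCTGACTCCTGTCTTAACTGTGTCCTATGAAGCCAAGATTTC
The annotated models of 34 of the 35 receptor genes have a length that is a multiple of 3, so these models hold coding sequence without untranslated ends, and the window before the start is not known to hold a transcription start. No build was named for the probe sets, so positions are those of the sequence table and none is given for a probe set.

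Over the first 50 bases after the annotated start, compared without gaps, Tas2r137 and Tas2r108 were identical at 13, or 26.0%. The median over the 465 pairs of the 31 receptor genes with a window, 29 of which begin with ATG, was 34.0%, and the closest other member to Tas2r108 was Tas2r104 (46.0%) and to Tas2r137 was Tas2r144 (40.0%). Pairs with a higher identity lay elsewhere in the family, led by Tas2r104 with Tas2r105 and Tas2r104 with Tas2r114, at 78.0% each. Starts annotated out of register would lower this ungapped measure, so a low value does not show that a pair is unlike. Probe sequences were not used here, so signal that paralogs share on the array could not be assessed. Both of the windows shown for Tas2r137 and Tas2r108 hold the octamer ATGCAAAT on the minus strand, a motif that POU-domain factors are known to bind, at positions 59 to 66 and 105 to 112 counted from the first base of the window. The octamer, searched on both strands, was in 7 of the 31 member windows (22.6%), the others being Tas2r107, Tas2r118, Tas2r126, Tas2r135 and Tas2r144, and in 1.74% of all 32851 windows of 300 bases. Neither window held the antioxidant response element TGACNNNGC, the amino acid response element TGATGNAA or the heat shock element TTCNNGAA on either strand, letters found in 12.4%, 3.97% and 8.52% of all windows. The TATA box TATAAA, also searched, was in 10 of the 31 member windows (32.3%), against 13.6% of all windows. Tas2r137 and Tas2r108 were not among these. Windows were not matched for base composition, so the shares of the octamer and the TATA box are descriptions. The Tas2r138 window held TGATGNAA on the minus strand at positions 3 to 10 and no octamer.

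Array medians lay between 6.75 and 6.81, and any 2 arrays correlated at 0.982 to 0.994 across genes, which are not independent replicates. Principal component 1 separated ATF4-deficient arsenite replicate 2 (29.4) from the other 9 arrays (-18.2 to 8.70). Atf4 differed by -1.76 log2 between ATF4-deficient and wildtype neurons under vehicle (SE 0.18, limma adjusted p = 0.00876; 0.0792 without wildtype vehicle replicate 2 and 0.17 without ATF4-deficient vehicle replicate 2) and by -2.08 under arsenite (SE 0.15, adjusted p = 0.000718). As labelled, the cultures carried neuron markers: 10 of 10 lay above the dim reference described next, with a list mean of 10.11 to 10.43 over the arrays. Astrocyte markers moved with the groups, at a list mean of 8.23 to 8.47 in wildtype vehicle, 7.63 to 8.18 in wildtype arsenite, 7.22 to 7.61 in ATF4-deficient vehicle and 7.14 to 7.50 in ATF4-deficient arsenite arrays. Of these 9 markers, Gfap passed the test for genotype under vehicle and for arsenite averaged over genotypes and Sox9 for genotype under arsenite, each lower (limma). Oligodendrocyte lineage markers followed the same order, from 7.85 to 8.09 in wildtype vehicle down to 7.12 to 7.35 in ATF4-deficient arsenite arrays; of 6 measured, Pdgfra was called lower for arsenite in wildtype neurons and on average, and Olig2 lower for genotype under arsenite. The 5 endothelial and pericyte markers had a mean of 6.91 to 6.97 in ATF4-deficient vehicle and 6.60 to 6.75 in the other arrays, with Rgs5 called higher for genotype under vehicle (1.29 log2, adjusted p = 0.0344) and lower with arsenite in ATF4-deficient neurons (-1.03, adjusted p = 0.045). The median of the 5 differed by only 0.04 log2 (3 upward) and -0.10 (1 upward) in these comparisons. The list mean therefore does not show a shift shared by the 5 markers. Microglia markers stayed between 6.87 and 7.11 with 0 of 8 called in limma, and of the neuron markers Slc17a6 was called higher for arsenite on average (0.31, adjusted p = 0.0354). Most neuron markers went the other way on that average, with 3 of 10 upward and a median of -0.10 log2. The part of these cells in the receptor results was not tested. In RNA from whole cultures, fewer cells of a type and less RNA per cell cannot be told apart.

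As a family the bitter taste receptor genes lay at the level of the receptors of the nose. The dim reference was the set of 1373 genes for olfactory and vomeronasal receptors, whose means over all arrays had their median at 4.52 and their 90th percentile at 6.63 (log2). The median receptor gene of the Tas2r family stood at 4.15, 19 of 35 were below the reference's median, and the median of all 22180 genes was 7.06. Only Tas2r138 (6.65) had a mean above the 90th percentile, and 0 of 35 exceeded the 95th (7.11). The count above the 90th percentile was 0 without wildtype arsenite replicate 2 or ATF4-deficient arsenite replicate 1, and 2 without either wildtype vehicle array or ATF4-deficient vehicle replicate 1. RMA values of different probe sets also differ by how well their probes bind, so the place of a gene in this range is a description and does not rank the amounts of the transcripts.

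**Figure D1:**
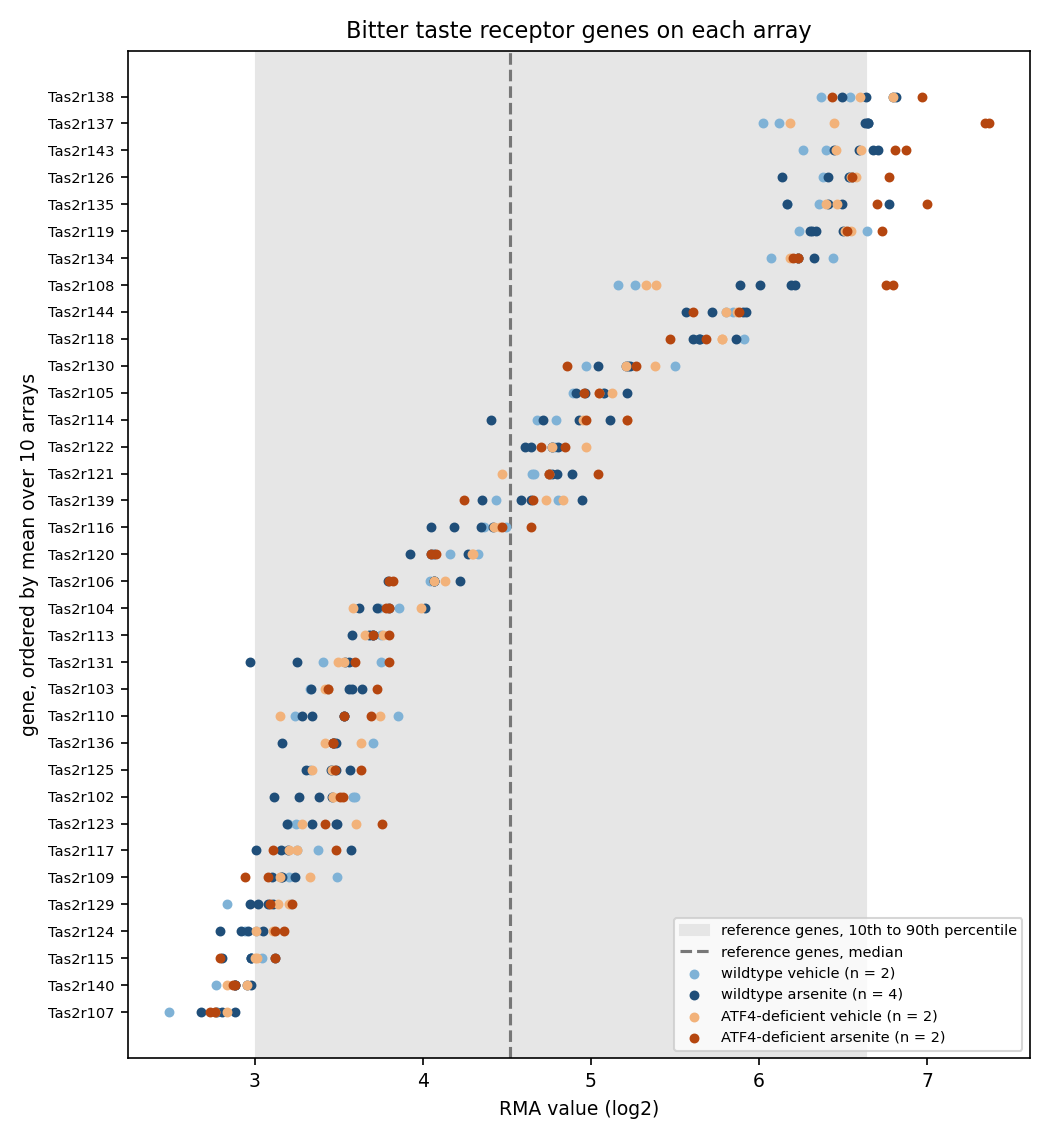
RMA value (log2, horizontal axis) of each of the 35 bitter taste receptor genes on each of the 10 arrays, ordered by mean, with the 10th to 90th percentile and the median of 1373 olfactory and vomeronasal receptor genes in grey. Light blue and dark blue points are wildtype vehicle and arsenite, light and dark orange the ATF4-deficient groups. The arsenite arrays of Tas2r137 and Tas2r108 lie to the right of their vehicle arrays, while the points of most other genes mix.

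The RefSeq table puts 24 of the genes in a large cluster on chromosome 6 between Ybx3 and Smim10l1, 5 between Sva and Olfr458, 3 between Ssbp1 and Mgam, and Tas2r118, Tas2r119 and Tas2r134 by themselves on chromosomes 6, 15 and 2. In the large cluster the means ran from 2.75 (Tas2r107) to 5.19 (Tas2r130), with a median of 3.49. The 5 genes between Sva and Olfr458 ran from 4.62 (Tas2r139) to 6.58 (Tas2r143), the 3 between Ssbp1 and Mgam from 5.90 (Tas2r108) to 6.65 (Tas2r138), and the 3 lone genes from 5.70 (Tas2r118) to 6.47 (Tas2r119). These places were grouped after the values were seen, no test was made of them, and signals of different probe sets do not compare transcript amounts.

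At the top of the range, Tas2r138 read 6.54 and 6.37 in wildtype vehicle, 6.50, 6.82, 6.64 and 6.80 in wildtype arsenite, 6.80 and 6.60 in ATF4-deficient vehicle arrays and, with arsenite, 6.97 and 6.43 in the ATF4-deficient arrays. Its groups overlapped in every comparison but ATF4 deficiency under vehicle, where both ATF4-deficient arrays lay above both wildtype arrays without passing the test (0.25 log2, SE 0.17, limma adjusted p = 0.673). At the bottom, Tas2r107 read 2.78 and 2.49 in wildtype vehicle, 2.89, 2.68, 2.77 and 2.81 in wildtype arsenite, 2.84 and 2.76 in ATF4-deficient vehicle arrays and, with arsenite, 2.76 and 2.73 in the ATF4-deficient arrays. Next above it were Tas2r140, between 2.77 and 2.98 over the 10 arrays, and Tas2r115, between 2.79 and 3.12. These values vary by about as much within a group as between groups. The median within-group SD of the 35 genes was 0.128, against 0.127 for all genes, with the widest spread in Tas2r110 (0.266) and the narrowest in Tas2r140 (0.0580).

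The effect of the compound in wildtype neurons was read from 6 arrays. Tas2r108 read 5.16 and 5.26 under vehicle and 6.21, 6.01, 6.19 and 5.89 under arsenite. Every arsenite array was above both vehicle arrays, and all of these values lay under the 90th percentile of the dim reference. The folds of Tas2r108 and Tas2r137 are therefore ratios of signals whose vehicle levels were within the range of the dim reference, and the fold in transcript was not measured. The mean went from 5.21 ± 0.07 (SD, n = 2) to 6.08 ± 0.16 (SD, n = 4), a rise of 0.86 log2 or 1.82-fold (SE 0.10, limma adjusted p = 0.00937). Tas2r137, a receptor whose human counterpart is TAS2R3, read 6.12 and 6.03 under vehicle and 6.63, 6.65, 6.64 and 6.65 under arsenite. The 4 arsenite arrays nearly coincided and lay above both vehicle arrays. Its mean went from 6.07 ± 0.07 (SD, n = 2) to 6.64 ± 0.01 (SD, n = 4), a rise of 0.57 log2 or 1.49-fold (SE 0.09, limma adjusted p = 0.0286).

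These were 2 of 35 members called higher (5.71%), where 0.23% of all genes were called higher, and 0 were called lower, where 0.252% of all genes were. The family was chosen with the rise of Tas2r108 known, so the share is a description. At an unadjusted p of 0.05 in limma, 4 members passed in either direction (11.4%, against 10.9% of all genes), the others being Tas2r143 and Tas2r102. Groups did not overlap for 4 members on the higher side (11.4%, against 7.86% of all genes), namely Tas2r108, Tas2r137, Tas2r143 and Tas2r121, and for Tas2r102 on the lower side (2.86%, against 12.7%). The other 33 genes differed by -0.29 to 0.28 log2, 13 of them upward. The median difference over the family was -0.02, as it was over all genes. The Tas2r108 call was lost without wildtype vehicle replicate 1 (0.81 log2, adjusted p = 0.148), and that of Tas2r137 without any of the 6 wildtype arrays (0.52 to 0.62 log2, adjusted p = 0.0506 to 0.211). With the replicate number as a block Tas2r137 had an adjusted p of 0.111, and with the wildtype arrays alone in the model the adjusted p was 0.0529 for Tas2r108 and 0.0551 for Tas2r137.

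In ATF4-deficient neurons the same comparison rested on 4 arrays. Tas2r108 read 5.33 and 5.39 under vehicle and 6.75 and 6.80 under arsenite. The arsenite pair lay far above the vehicle pair and above the 90th percentile of the dim reference. The rise was 1.42 log2 or 2.67-fold (SE 0.12, limma adjusted p = 0.00136), from 5.36 ± 0.04 to 6.78 ± 0.03 (SD, n = 2 each). Tas2r137 read 6.18 and 6.45 under vehicle and 7.37 and 7.35 under arsenite. Its vehicle arrays differed more from each other than its arsenite arrays did and stayed well below them. The rise was 1.04 log2 or 2.06-fold (SE 0.10, limma adjusted p = 0.00176), from 6.32 ± 0.19 to 7.36 ± 0.01 (SD, n = 2 each). Both calls were kept whichever of the 10 arrays was left out, ATF4-deficient arsenite replicate 2 included, with rises of 1.39 to 1.45 and 0.91 to 1.17 log2. With the 4 ATF4-deficient arrays alone in the model 0 genes of all were called (limma), and the adjusted p was 0.21 for Tas2r108 and 0.217 for Tas2r137.

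Here too 2 of 35 members were called higher, where 0.631% of all genes were, and 0 lower, where 0.523% were. At an unadjusted p of 0.05, 6 members passed (17.1%, against 12% of all genes), among them Tas2r143 (0.31 log2), Tas2r135 (0.42) and Tas2r121 (0.28) on the higher and Tas2r106 (-0.29) on the lower side. Groups of 2 arrays did not overlap for 9 members on the higher side (25.7%, against 18.1% of all genes) and 5 on the lower (14.3%, against 20.7%). The steepest fall was that of Tas2r139, from 4.74 and 4.83 to 4.66 and 4.24 (-0.33 log2, SE 0.19, limma adjusted p = 0.551), with ATF4-deficient arsenite replicate 2 as the lowest array. The other 33 genes differed by -0.33 to 0.42 log2, 19 of them upward, and the family's median was 0.01 against -0.01 over all genes.

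**Figure D2:**
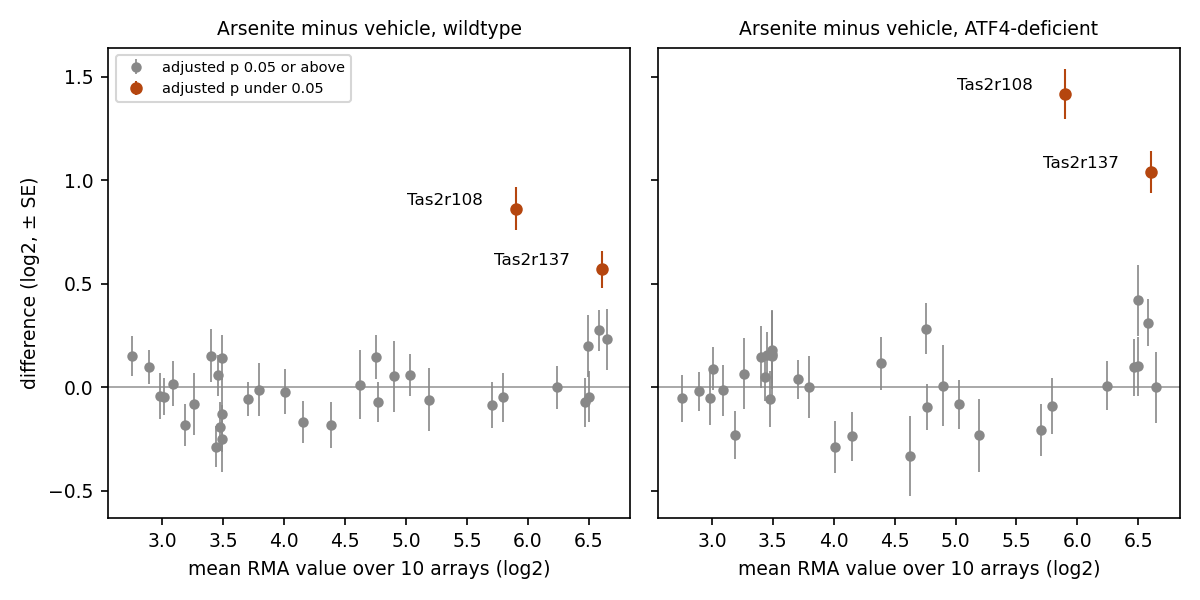
Arsenite minus vehicle difference (log2, vertical axis, bars are the SE from limma) of each bitter taste receptor gene against its mean RMA value, in wildtype (left) and ATF4-deficient neurons (right). Tas2r108 and Tas2r137 stand above the other 33 genes in both panels, at 0.86 and 0.57 on the left and 1.42 and 1.04 on the right.

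Averaged over both genotypes, an estimate that shares its arrays with the comparisons above, arsenite raised Tas2r108 by 1.14 log2 (SE 0.08, limma adjusted p = 8.79e-05) and Tas2r137 by 0.81 (SE 0.07, adjusted p = 0.000342). On all 6 arsenite arrays both genes lay above all 4 vehicle arrays, which was so for 1.84% of all genes. For 0 members were all arsenite arrays below all vehicle arrays, a pattern of 2.01% of all genes. The 2 members were the ones called higher (1.65% of all genes), and 0 were called lower (1.42%). At an unadjusted p of 0.05, 7 members passed (20%, against 16.1% of all genes). Tas2r143 was nearest to the threshold among the rest. It read 6.40 and 6.26 in wildtype vehicle, 6.45, 6.60, 6.68 and 6.71 in wildtype arsenite, 6.60 and 6.46 in ATF4-deficient vehicle arrays and, with arsenite, 6.87 and 6.81 in the ATF4-deficient arrays. Its arsenite arrays were above the vehicle arrays within each genotype, and the averaged difference was 0.29 log2 (SE 0.07, limma adjusted p = 0.0622). It was called with array medians made equal (adjusted p = 0.0472) and without wildtype arsenite replicate 1 (0.0445). The steepest averaged fall was in Tas2r109 (-0.21, SE 0.08, adjusted p = 0.213), whose values lay between 2.94 and 3.49.

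**Figure D3:**
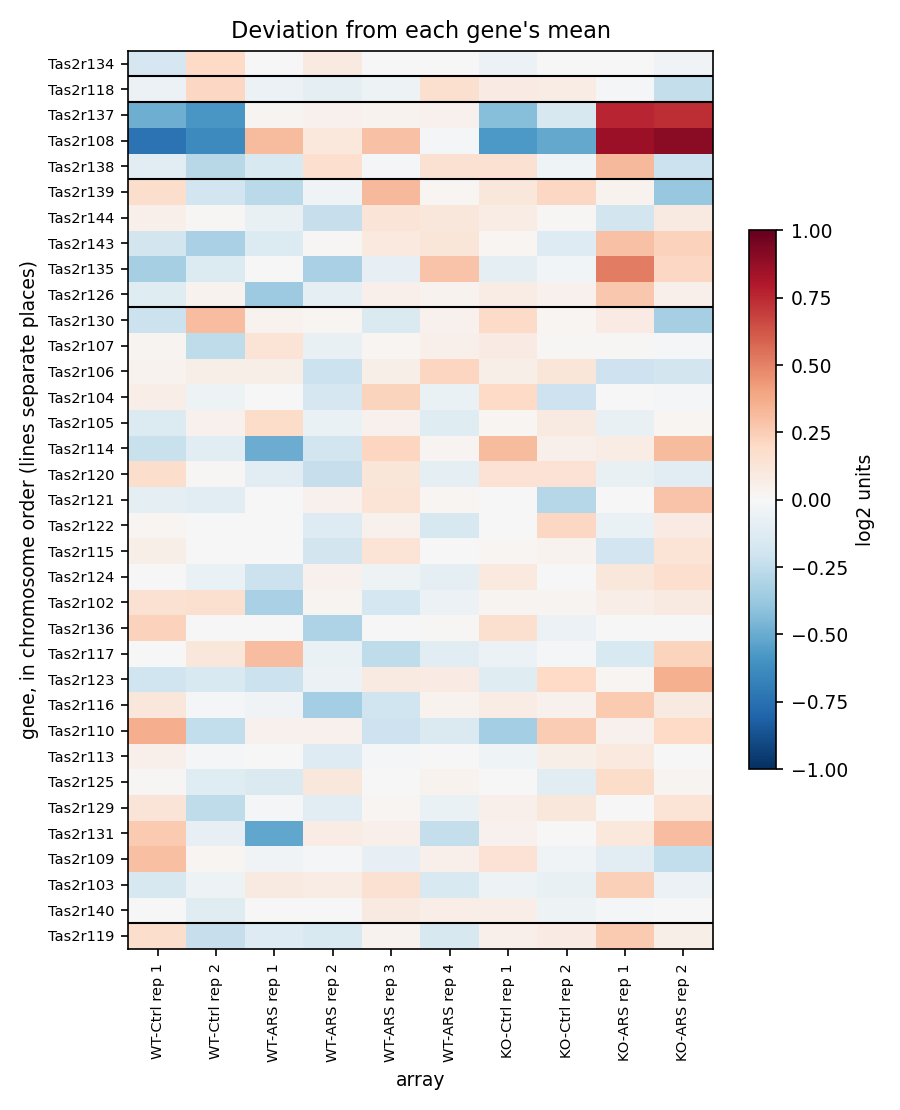
Deviation of each array from the gene's mean over 10 arrays (colour, log2 units) for the 35 bitter taste receptor genes in chromosome order, with lines between places in the genome (WT wildtype, KO ATF4-deficient, Ctrl vehicle, ARS arsenite). The rows of Tas2r137 and Tas2r108 are blue on the 4 vehicle arrays and darkest red on the 2 ATF4-deficient arsenite arrays, and the neighbouring row of Tas2r138 does not follow them.

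Without arsenite, no receptor gene passed the test for a difference between genotypes. In limma 0 of 35 members were called in either direction, where 0.18% of all genes were called higher and 0.252% lower, and at an unadjusted p of 0.05 only Tas2r137 passed (2.86%, against 10.9% of all genes). Tas2r137 was 0.24 log2 higher in ATF4-deficient neurons (SE 0.10, adjusted p = 0.415) and Tas2r108 was 0.15 higher (SE 0.12, adjusted p = 0.735), with 95% intervals of 0.02 to 0.47 and -0.12 to 0.41. The largest difference was that of Tas2r114, at 4.68 and 4.80 in wildtype and 5.22 and 4.95 in ATF4-deficient arrays (0.35 log2, SE 0.20, adjusted p = 0.581). The largest in the other direction was Tas2r102, at 3.59 and 3.60 against 3.47 and 3.47 (-0.13 log2, SE 0.11, adjusted p = 0.765). Neither gene lay near the top of the reference, and groups of 2 arrays did not overlap for 8 members on the higher side (22.9%, against 21.2% of all genes) and 2 on the lower (5.71%, against 21.4%).

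Under arsenite the genotypes differed in both genes. ATF4-deficient arrays read 6.75 and 6.80 for Tas2r108 against 5.89 to 6.21 in wildtype, a difference of 0.70 log2 or 1.63-fold (SE 0.10, limma adjusted p = 0.018). For Tas2r137 they read 7.37 and 7.35 against 6.63 to 6.65, a difference of 0.71 log2 or 1.64-fold (SE 0.09, limma adjusted p = 0.00793). So both genes were higher in arsenite-treated ATF4-deficient neurons than in arsenite-treated wildtype neurons. These 2 members were called higher where 0.0721% of all genes were, and 0 lower where 0.271% were. The wildtype arsenite arrays are also those of the wildtype comparison above. The calls of both genes were lost without ATF4-deficient arsenite replicate 1 (adjusted p = 0.0874 for Tas2r108 and 0.0743 for Tas2r137) or replicate 2 (0.167 and 0.109), and with the replicate number as a block (0.0897 and 0.0798). That of Tas2r108 was also lost without wildtype arsenite replicate 2 (0.0612) and with the arsenite arrays alone in the model (0.073). The differences stayed between 0.64 and 0.75 log2 without each array in turn. Among the rest, Tas2r135 (0.39 log2, adjusted p = 0.332) and Tas2r131 (0.37, adjusted p = 0.4) were the largest upward and Tas2r106 (-0.23, adjusted p = 0.444) the largest downward. Tas2r106 read 4.07, 3.79, 4.07 and 4.22 in wildtype arsenite and 3.80 and 3.82 in ATF4-deficient arsenite arrays. At an unadjusted p of 0.05, 8 members passed (22.9%, against 12.1% of all genes). Groups did not overlap for 8 members on the higher side (22.9%, against 10.6% of all genes) and for Tas2r109 on the lower (2.86%, against 7.95%).

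Whether arsenite acted differently in the genotypes was tested by the interaction. The ATF4-deficient rise exceeded the wildtype rise by 0.56 log2 for Tas2r108 (SE 0.16, unadjusted p = 0.00484 in limma, 95% interval 0.21 to 0.90) and by 0.47 for Tas2r137 (SE 0.14, unadjusted p = 0.00537, 95% interval 0.17 to 0.77). After adjustment over all genes the p was 0.744 for each, and 0 of 22180 genes passed, with 6% of all genes and 3 members (8.57%) at an unadjusted p of 0.05 in limma. A larger rise in ATF4-deficient neurons was therefore not called. The third member was Tas2r102, and the largest estimate in the other direction was that of Tas2r139 (-0.35, SE 0.26, adjusted p = 0.887).

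The receptors' signalling partners passed no test. Of the 20 listed genes for sweet and umami receptors, taste transduction and receptor transport, 18 were measured and 0 passed the test in any comparison, while 17 of the 18 lay above the median of the dim reference. Their median difference was -0.01 log2 in each genotype under arsenite. Gnat3, which encodes the gustducin α subunit, was at 4.92 in wildtype vehicle and 5.07 in wildtype arsenite, and at 5.23 and 5.25 in the ATF4-deficient groups (0.15 and 0.02 log2). Plcb2, the phospholipase gene of the cascade, differed by -0.04 in wildtype and 0.08 in ATF4-deficient neurons. Itpr3 and the channel gene Trpm5 differed by 0.00 and -0.08 in wildtype and by -0.01 and -0.08 in ATF4-deficient neurons. Calhm1, a subunit of the ATP release channel, differed by 0.00 and -0.01. Gng13 and Calhm3 were not analysed here, as no probe set carries either symbol alone. Of 12 markers of taste and tuft cells, which share this cascade, 10 were measured and 0 passed in any comparison. Their mean per array stayed between 6.63 and 6.80. Of the 10, 7 lay above the 90th percentile of the dim reference and all 10 above its median. Pou2f3, the transcription factor that defines these cells, was at 5.30, under that 90th percentile.

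**Figure D4:**
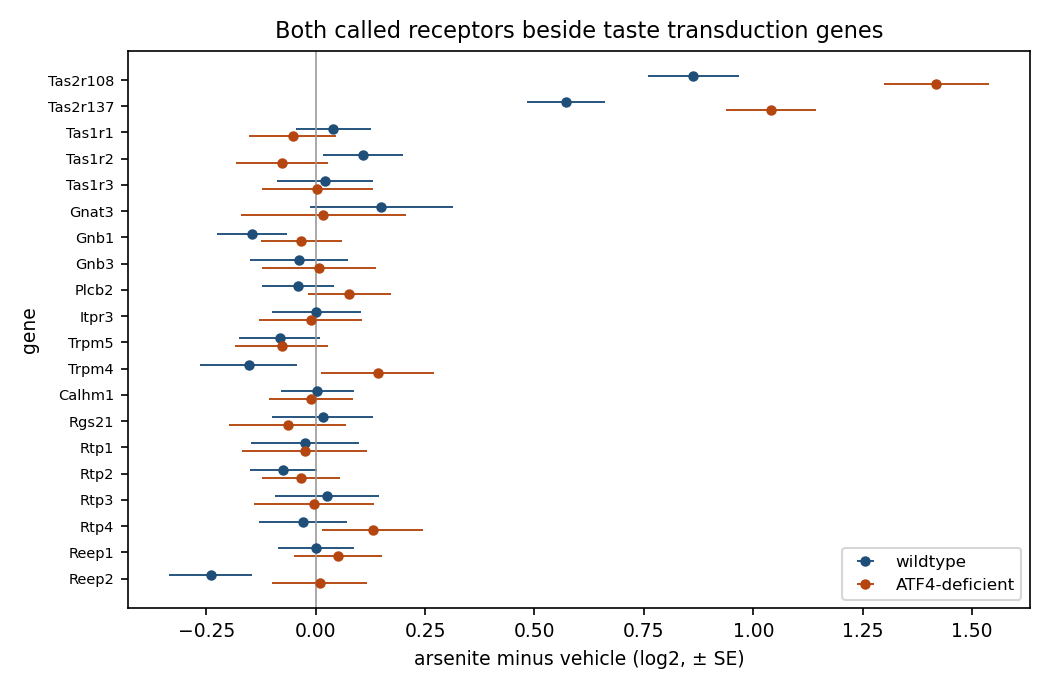
Arsenite minus vehicle difference (log2, horizontal axis, bars are the SE from limma) in wildtype and ATF4-deficient neurons for Tas2r108 and Tas2r137 and for 18 genes of taste receptors, transduction and receptor transport. The 18 lie between -0.24 and 0.15, and the receptor pair lies to the right of all of them.

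The genes around the pair were read next, as the 3 nearest measured genes on either side in the RefSeq order. Ssbp1, which encodes the mitochondrial single-stranded DNA-binding protein, precedes Tas2r137 on the same strand. It read 7.98 and 7.86 in wildtype vehicle, 8.29, 8.24, 8.36 and 7.94 in wildtype arsenite, 7.83 and 7.61 in ATF4-deficient vehicle arrays and, with arsenite, 8.39 and 8.59 in the ATF4-deficient arrays. The wildtype groups overlapped and the ATF4-deficient groups did not. Ssbp1 rose by 0.77 log2 with arsenite in ATF4-deficient neurons (SE 0.15, limma adjusted p = 0.0328), and its wildtype difference was 0.29 (SE 0.13, adjusted p = 0.434). The ATF4-deficient call was lost without 7 of the 10 arrays (adjusted p up to 0.204), namely both wildtype vehicle arrays, wildtype arsenite replicate 2 and the 4 ATF4-deficient arrays, and with the mean of its probe sets (0.55 log2, adjusted p = 0.055).

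Wee2, a kinase gene known from oocytes, precedes Ssbp1 on that strand. It differed by 0.34 log2 in wildtype (SE 0.11, limma adjusted p = 0.231) and 0.36 in ATF4-deficient neurons (SE 0.12, adjusted p = 0.25). Averaged over genotypes Wee2 rose by 0.35 (adjusted p = 0.0425), a call lost without 9 of the 10 arrays in turn (adjusted p up to 0.159) and kept without wildtype arsenite replicate 3. Ssbp1 rose by 0.53 on that average (adjusted p = 0.0148), a call lost without either wildtype vehicle array, ATF4-deficient vehicle replicate 2 or ATF4-deficient arsenite replicate 2 (adjusted p up to 0.0739). Dennd11, on the opposite strand, differed by -0.02 and 0.30 log2 in wildtype and ATF4-deficient neurons (adjusted p = 0.969 and 0.369). On the other side of the pair, Prss37 differed by 0.25 and -0.13 (adjusted p = 0.655 and 0.856), Olfr461 by -0.07 and 0.00 and Olfr460 by 0.15 and 0.07. On the Ssbp1 side of Tas2r137 and Tas2r108, the arsenite estimates of Ssbp1 and Wee2 were thus upward and smaller than those of the pair in each genotype. In wildtype neurons neither of them was called, and Dennd11 passed no test. On the Prss37 side no gene passed a test, with arsenite estimates from -0.13 to 0.25 log2. Whether the array reads separate receptor transcripts or RNA that continues from a neighbouring gene was not tested.

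**Figure D5:**
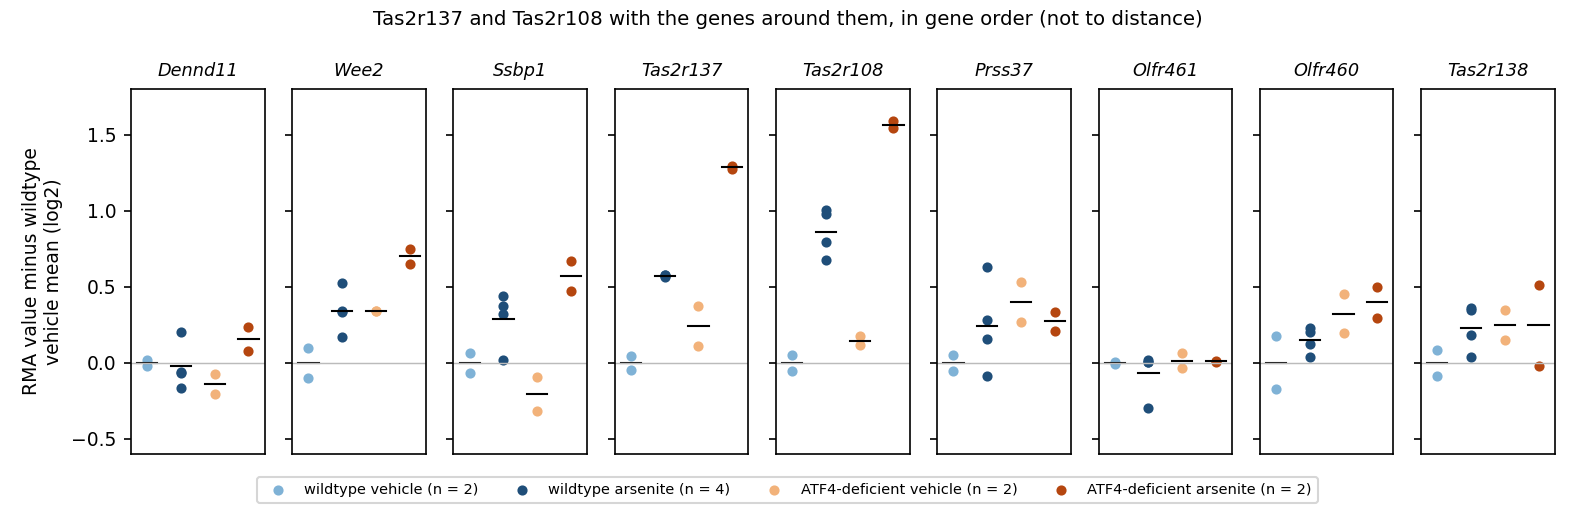
RMA value minus the wildtype vehicle mean (log2, vertical axis) on each array, with group means as bars, for Tas2r137, Tas2r108, the 3 nearest measured genes on either side and Tas2r138, in gene order and not to distance. Among the 9 genes drawn, Tas2r137 and Tas2r108 are the ones with all 6 arsenite arrays above all 4 vehicle arrays, and Tas2r108 reaches the highest values.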

How the data were processed

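Each sample has 1 column of log2 values that the authors deposited. They were made by RMA in Partek 6.6, as stated in the series' design text and per the submitters' processing notes. RMA subtracts background, gives all arrays the same distribution and summarizes each probe set, so a shift common to most genes is lost. The genome build behind the probe sets was not given in the sources used here.

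Of 41345 probe sets, 23521 carried 1 gene symbol in the platform annotation, 1814 several and 16010 had no entry. The brightest stood for each of 1082 genes with more than 1, which left 22180 genes. All 35 Tas2r symbols matched the GRCm38.p6 gene table by Entrez identifier, and 31 had a sequence window.

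Group means were fitted to all 10 arrays with limma 3.58.1 in R 4.3.3 (6 residual degrees of freedom, prior 5.08) and p-values adjusted by Benjamini-Hochberg over all genes at a threshold of 0.05. The number of arrays limits precision. Sample titles number biological replicates without naming embryos, litters or cultures, so p-values measure the spread between these samples, which may be technical. The members and lists were chosen with earlier results of these data known. Named were all members called, the 3 brightest and 3 dimmest, the largest rise and fall of each comparison, a fixed list of taste transduction genes and the 3 nearest genes on either side of called members. Alternatives were filters on dim genes, averaged probe sets, equal medians, array weights, a trended robust prior, a replicate block, the compared groups alone and leaving out each array.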

Additional observations from a re-analysis of the deposited data

Results flagged for a closer look

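In the 4 wildtype arsenite arrays, the group large enough for Dixon's test, 5 of 35 members had an array far from the other 3. They were Tas2r113 in replicate 2 (3.58, next 3.68), Tas2r118 in replicate 4 (5.86, next 5.65), Tas2r130 in replicate 3 (5.05, next 5.21), Tas2r134 in replicate 2 (6.33, next 6.23) and Tas2r136 in replicate 2 (3.16, next 3.47). Replicate 2 held 3 of the 5, and none of these genes passed a test in any comparison. In Tas2r134 the other 3 arrays held the same number, which makes any departure stand apart. The nominal rate of Dixon's test is about 1 in 20, for normally distributed values. The share over all genes was not computed, so 5 of 35 is not read as an excess.

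Tas2r102 was lower on all 4 arsenite arrays than on both vehicle arrays in wildtype neurons (-0.29 log2) and higher on both arsenite arrays in ATF4-deficient neurons (0.05). Both ATF4-deficient vehicle arrays held the same number (3.47), so a small shift is enough to part those groups. The interaction was 0.34 log2 (SE 0.15, limma unadjusted p = 0.0481, adjusted p = 0.828), so the difference did not pass over all genes, at a level of 3.44 that is within the dim reference.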

How the results depend on the processing

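Over all alternatives and comparisons, 212 values of Tas2r108 and Tas2r137 were recomputed: 0 changed sign, 20 calls were lost and 0 gained. Many of these signs could not change. The filters, averaged probe sets, the trended robust prior and the compared groups alone leave both genes' estimates as they were. So does leaving out an array outside the comparison. Genotype under vehicle and the interaction held no call to lose. For the other 33 members, 3 of 3210 gained a call, all of Tas2r143 (1 of them under a filter that it passed through arsenite arrays alone), and 235 uncalled values changed sign. The count of all genes called was 107 for arsenite in wildtype and became 169 with genes under the reference's 90th percentile left out, 186 with array weights, 17 with the replicate block and 11 with the compared groups alone. For arsenite in ATF4-deficient neurons 256 became 135 with array weights and 0 with the compared groups alone. For genotype under vehicle 96 became 204 with that filter, 228 with array weights, 165 with the replicate block and 0 with the compared groups alone, and for genotype under arsenite 76 became 40, 4 and 41 with array weights, the block and the compared groups alone. The receptor genes called were 1 with the block and 0 with the compared groups alone for arsenite in wildtype, 0 with the compared groups alone for arsenite in ATF4-deficient neurons, and 0 and 1 for genotype under arsenite, in place of 2. Leaving out each array gave 0 to 75, 50 to 200, 0 to 99, 1 to 64 and, for the averaged arsenite effect (682), 242 to 654 genes, and 0 to 2, 2, 0, 0 to 2 and 2 to 3 receptor genes. A group left with 1 array was assumed to vary like the others. The interaction gave 0 genes in limma under every alternative run. Receptor genes above the reference numbered 10 at its 75th percentile and 0 at its 95th, and 0 to 2 at the 90th without each array. Of the 35, 6 passed the filter at the 90th percentile, 4 of them (Tas2r108, Tas2r135, Tas2r137 and Tas2r143) through arsenite arrays alone. Samples with the same number correlated in their deviations at -0.06 to 0.40, highest for ATF4-deficient vehicle with ATF4-deficient arsenite. In groups of 2 arrays the deviations mirror each other, so these correlations cannot decide whether the numbers pair the samples. The main model took no pairing. Replicate numbers 3 and 4 were in wildtype arsenite alone, so the block fitted those arrays exactly and they no longer informed the comparisons. The block also left fewer residual degrees of freedom. With the block, the Tas2r137 call in wildtype and both calls for genotype under arsenite were lost. The causes of these shifts were not tested. Most members lie at background, where a change is hard to see.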

Other observations

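Some receptor genes carried the same number, to every deposited digit, on several arrays. This was so on 3 or more arrays for 9 of the 35 members (25.7%), against 16.0% of all genes and 15.1% of the olfactory and vomeronasal reference. Tas2r134 read 6.23 on 5 arrays, 3 of them wildtype arsenite, and Tas2r106 (4.07), Tas2r136 (3.47) and Tas2r140 (2.89) each repeated a value on 4 arrays. Tas2r108 and Tas2r137 were not among the 9.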
